A study of Schizosaccharomyces pombe with 97 samples.

Results

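The comparison described here is that of wild type fission yeast (*Schizosaccharomyces pombe*) after 1 week (T1W) and after 1 day (T1D) of nitrogen starvation, and it rests on 6 RNA-seq libraries of the 97 samples in the series. The members were taken by their labels: the 3 replicates A, B and C of T1W and the 3 of T1D of the strain *smt0*. The *smt0* strain has the genotype *mat1-M smt0* and keeps the M mating type because of a small deletion at the mating type locus, so that a culture holds no partner cells. It is prototrophic and carries none of the gene deletions studied in the series. The cells were grown in minimal glutamate medium with nitrogen (T0) and moved to the same medium without nitrogen, and each library is from 1 of 3 biological replicates. The other samples are T0 and T2W (2 weeks) of *smt0*, 6 deletion mutants at these times (*ies2∆* without T2W), and 16 ChIP-seq samples that were not used. The deletions of *hht2*, a histone H3 gene, and of *ies2*, a subunit gene of the Ino80 complex, were used only to set the same interval beside that of wild type.

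Nitrogen starvation without a mating partner arrests fission yeast in G1, from which the cells pass into G0, a reversible quiescent state that can last for weeks. On the way in, the cells divide into small, rounded cells, degrade protein by autophagy and switch on the regulator Ste11, which drives the genes of pheromone and pheromone reception. The mass of ribosomes and of transcripts per cell is known to be much lower in quiescence than in growth. The question of the comparison is which gene functions still move between the first day, when the arrest has just been reached, and the first week, when it is established.

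The depth differed between the times. The T1W libraries held 4235988, 3271040 and 6000875 gene reads (replicates A, B and C), and the T1D libraries held 8657896, 10244986 and 3487066. T1D replicate C stood apart from the other T1D libraries: over the tested genes its log2(CPM + 1), where CPM are gene reads per 1000000 of the TMM-scaled library, correlated with those of T1D A and B at *r* = 0.974 and 0.982, against 0.991 between A and B, and with the T1W libraries at 0.968 to 0.977, against 0.954 to 0.967 for T1D A and B. The labels of mating type could be checked on part of the markers. The M factor genes *mfm1*, *mfm2* and *mfm3* and the P factor receptor gene *mam2* were read in all 6 libraries, *mat1-Mc* had 1 to 7 reads per library, the P cell gene *mat2-Pc* had 0, and the P cell genes *map2* and *map3* lay at 8.46 to 15.1 CPM in T1W and 6.28 to 16.6 CPM in T1D. The meiotic inducer *mei3* lay at or below 2.05 CPM in each.

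Gene reads per spike-in read were lower in every T1W library than in any T1D library. A fixed set of synthetic RNAs of the External RNA Controls Consortium (ERCC) was added. According to the methods its amount followed the number of vegetative cells of a culture, and how that number was set for starved cultures is not given in the sources used here. The ratio of gene reads to ERCC reads, and every value on the spike-in scale, stands for RNA per cell only if the amount followed the cells harvested at each time. There were 35.3, 18.8 and 3.87 gene reads per ERCC read at T1W, against 672, 283 and 144 at T1D. Within each group the libraries spread over a wide range. T1W replicate C, with 1551852 ERCC reads, had the lowest ratio of the 12 *smt0* libraries. Of the 6 libraries compared, T1D replicate A had the smallest ERCC total, 12886 reads. The expression level, here the median over tested genes of log2(ERCC-scaled reads + 1), was 9.62 ± 1.60 at T1W and 14.05 ± 1.09 at T1D (SD, n = 3 each). With a difference of -4.43 the two-sided exact permutation test gave *P* = 0.1, the smallest *P* it can give. In bulk libraries, fewer cells than counted and less RNA per cell cannot be told apart.

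**Figure D1:**
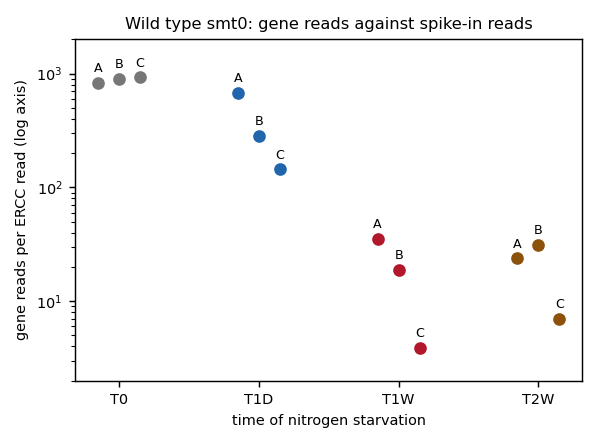
Gene reads per ERCC spike-in read (log axis) in the 12 wild type libraries by time of nitrogen starvation; each point is a library, with its replicate letter. The ratios are 3.87 to 35.3 at T1W and 144 to 672 at T1D, and the spread within T1D and within T1W is wider than at T0.

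A pair of scales was therefore used for single genes. On the gene-count scale the libraries were set to equal TMM-scaled totals of gene reads, so a change is a change relative to the other transcripts. On the spike-in scale they were set to equal ERCC totals. Of 6608 tested genes, 417 (6.31%) were higher and 672 (10.2%) lower at T1W than at T1D on the gene-count scale (edgeR quasi-likelihood test, FDR adjusted *P* under 0.05), with a median log2 fold change of -0.05. These counts leaned on single libraries. They were 677 higher and 886 lower without T1D C, 124 and 272 without T1D A, 123 and 278 without T1D B, and 191 and 271 without T1W C. Fitted on the 6 libraries alone they were 206 and 274. On the spike-in scale 1 gene (0.0151%) was higher and 6535 (98.9%) were lower, with a median of -4.24, which is an 18.9-fold lower level. Each library has a single ERCC factor for all its genes, so this count does not add to the 3 against 3 comparison of levels. The gene functions are described on the gene-count scale first, and a gene whose call was kept in each of the 6 fits that left out 1 library is called stable.

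The change was not uniform over functions. The lists with the highest medians were the core quiescence genes, the Hsp31 glyoxalases and the genes of trehalose, glycerol and gluconeogenesis, and those with the lowest were the transfer RNAs, the small nuclear and nucleolar RNAs and the mitochondrial genome. Nuclear genes of the respiratory chain and the ribosomal protein genes were shifted down by less, and genes of chromatin remodelling and chaperones were shifted up by a small step. Autophagy had no member called in either direction by edgeR, and its median was -0.01 over 27 genes. Of all tested genes 6.31% rose and 10.2% fell, so a list of this size would hold few calls at those shares. Among the nitrogen uptake and assimilation genes 1 of 35 rose and 0 fell, with a median of -0.07. In the fit of the 6 libraries alone 1 of them rose and 2 fell. Those lists were far from flat on the first day, with medians of 0.84 and 1.22 at T1D over T0 (a comparison that shares the T1D libraries). The lists also differed in gene length. Median lengths were 73 bases for transfer RNAs, 107 for small nuclear and nucleolar RNAs and 74 for the mitochondrial genome. Protein-coding genes had a median of 1799 bases. Among named ribosome biogenesis genes the rises had exon lengths of 2044 to 3595 bases and the falls 912 to 1850. Other genes went the other way, such as *cig2* (4432 bases, lower) and *SPAC869.06c* (732 bases, higher). Whether length had a part was not tested.

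**Figure D2:**
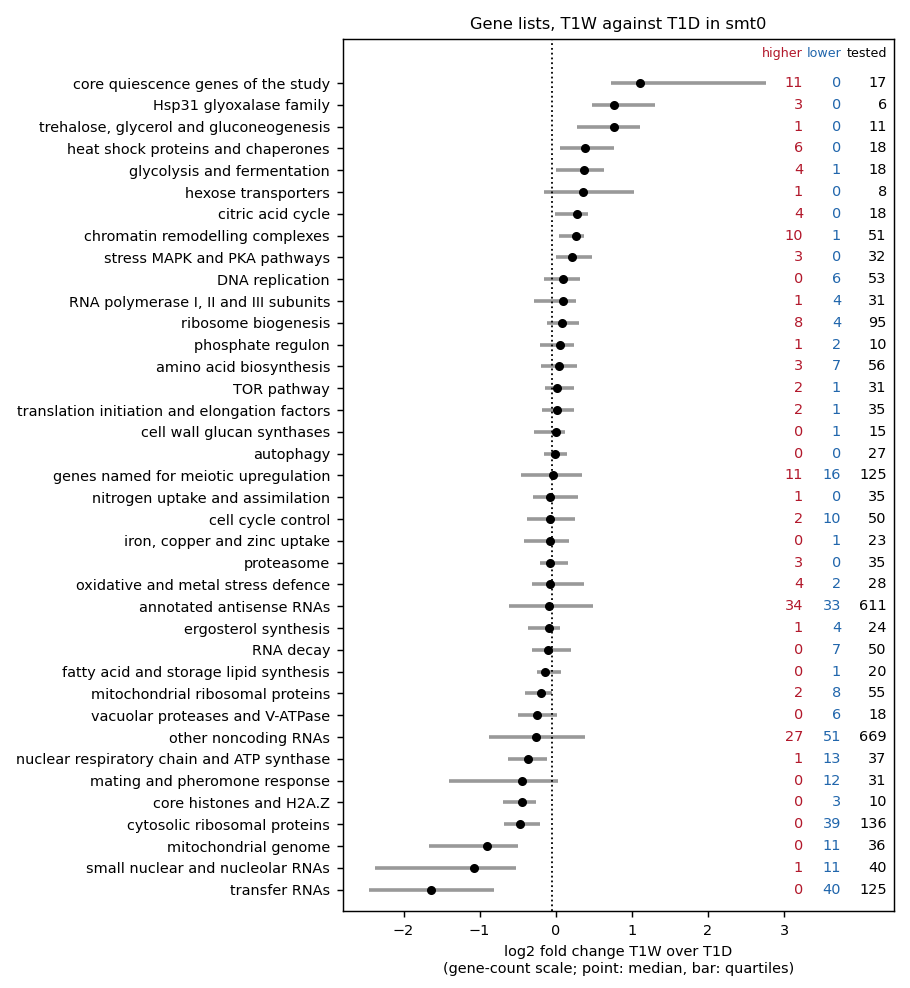
Median (point) and quartiles (bar) of the log2 fold change T1W over T1D for 38 gene lists on the gene-count scale, with the numbers of genes called higher, called lower and tested; the dotted line is the median of all 6608 tested genes, -0.05. Transfer RNAs lie lowest, at -1.64, and the core quiescence genes highest, at 1.11.

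Of 31 mating and pheromone genes 12 (38.7%) fell, beside 10.2% of all tested genes, 0 rose and 19 were not called, with a median of -0.44, and the count was 10 to 14 when any 1 library was left out. The M factor precursors *mfm1*, *mfm2* and *mfm3*, the secreted mating pheromone of M cells, fell far. *mfm3* had 79.2, 15.2 and 48.4 CPM at T1W (A, B and C), against 1310, 1390 and 847 CPM at T1D. The highest T1W value lay far below the lowest T1D value, and the log2 fold change was -4.62 (SE 0.53, adjusted *P* = 2.33e-08). *mfm1* had 303, 51.0 and 235 CPM at T1W, against 2400, 3400 and 2190 CPM at T1D (-3.76, SE 0.58, adjusted *P* = 6.51e-06). *mfm2* had 197, 38.5 and 45.4 CPM at T1W, against 628, 653 and 284 CPM at T1D (-2.48, SE 0.57, adjusted *P* = 0.0021). The groups did not overlap in either of these genes, and T1W replicate B was the lowest library for all 3 precursors. The 3 genes are paralogs with similar coding sequences, so reads may be shared between them.

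Other members with different roles in the pheromone pathway also passed. *mam2*, the receptor for P factor, had 119, 22.2 and 51.6 CPM at T1W, against 877, 789 and 612 CPM at T1D (-3.56, SE 0.56, adjusted *P* = 9.82e-06). *mam4*, the methyltransferase that finishes M factor, fell by 2.40 on the log2 scale (SE 0.52, adjusted *P* = 0.00132), and *mam1*, its exporter, had a log2 fold change of -1.43. The exchange factor *ste6* (-1.52), the small GTPase *ras1* (-0.81), the kinase *spk1* (-0.89), the G protein regulator *rgs1* (-1.36) and the cell contact protein *mam3* (-1.57) were also lower. Before starvation these transcripts were scarce in part: *mfm1* averaged 8.46 CPM and *mfm3* 2.54 CPM at T0, while *ras1* averaged 101 CPM. *dni2*, which acts in cell fusion, had 6.17, 2.33 and 2.79 CPM at T1W, against 17.0, 16.8 and 10.2 CPM at T1D (-1.97, SE 0.44, adjusted *P* = 0.00149). The calls of *mfm1*, *mfm2*, *mfm3*, *mam2*, *mam4* and *dni2* were stable.

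Ste11 binds the TR box, a motif of the letters TTCTTTGTT, which was searched on both strands of 5063 promoters of protein-coding genes (250 bases before to 50 after the gene start annotated by RefSeq, ASM294v3). It was found in 13 of the 31 mating and pheromone promoters (41.9%), in 3.47% of the promoters of lower genes, in 0.85% of those of higher genes and in 1.96% of all promoters. Among the mating genes, the 13 with a TR box had a median log2 fold change of -0.89 and 6 of them fell, and the 18 without had a median of -0.16 and 6 fell. The stretches around the match are shown for the precursor genes that hold it, 5′ to 3′ on the gene's strand with the TR box in capitals, here read as its reverse complement. For single genes only the 250 bases before the gene start were searched. No exact match lies in that part of the promoters of *mfm2* and *mam2*.
*mfm1* (chrI:4916926-4916954, plus strand, 70 bases before the gene start): gggtccgaccAACAAAGAAgtctcagttt
*mfm3* (chrII:700190-700218, plus strand, 155 bases before the gene start): aggcccaaccAACAAAGAAgtctcagatt
The authors' annotation starts *mfm1* further upstream, at 4916603, so that this stretch lies inside their gene model.

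**Figure D3:**
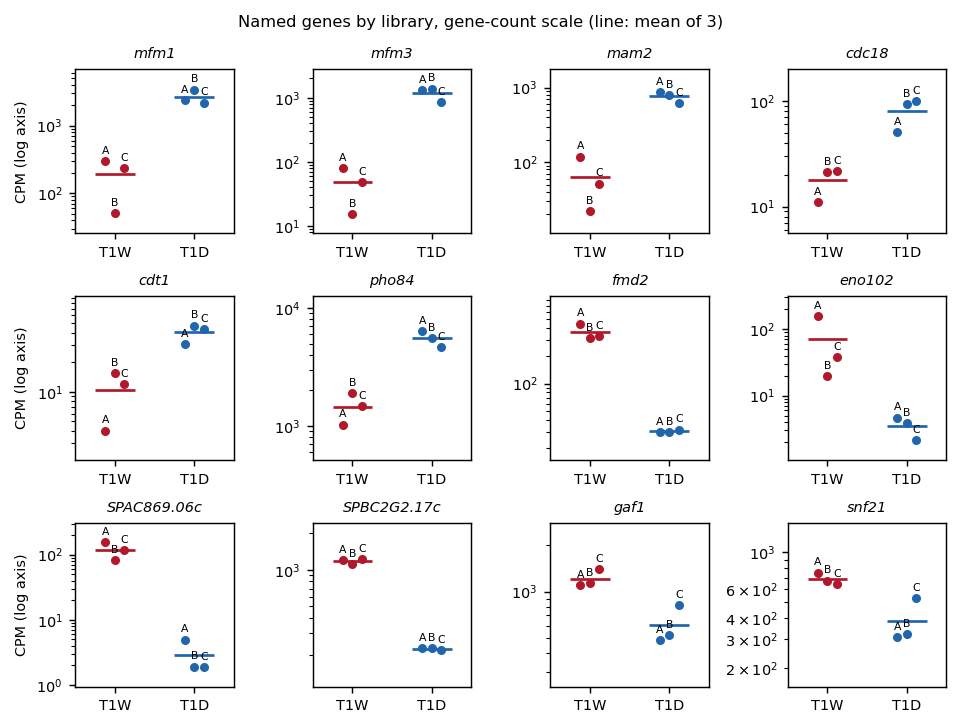
CPM on the gene-count scale (log axis) of 12 genes in the T1W libraries (left, red) and the T1D libraries (right, blue), with replicate letters and the mean of 3 as a line. The groups do not overlap in any panel; *mfm3* lies at 15.2 to 79.2 CPM at T1W and 847 to 1390 CPM at T1D, and *fmd2* at 311 to 448 CPM and 29.4 to 31.6 CPM.

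The pre-replicative complex loaders *cdc18* and *cdt1*, which license replication origins in G1, had the largest falls among 53 DNA replication genes, of which 6 (11.3%) fell and 0 rose at a median of 0.10. That share is close to the 10.2% of all tested genes that fell, so the list as a whole did not stand out, and the values below are those of single genes. *cdc18* had 11.1, 21.0 and 21.5 CPM at T1W, against 50.7, 93.1 and 99.7 CPM at T1D (-2.18, SE 0.29, adjusted *P* = 3.15e-07). *cdt1* had 4.04, 15.5 and 12 CPM at T1W, against 30.5, 47.4 and 43.7 CPM at T1D (-1.96, SE 0.31, adjusted *P* = 9.82e-06). Neither pair of groups overlapped, both calls were stable, and replicate A was the lowest library at both times. The other members that fell were *spd1* (-0.83), an inhibitor of ribonucleotide reductase, *sld5* (-0.72), a subunit of the GINS complex, *rfc2* (-0.58) and *orc5* (-0.51). Leaving out T1D A left 2 lower genes in the list, and leaving out T1D C gave 7 lower and 10 higher.

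Of 50 cell cycle genes 10 (20.0%) fell, beside 10.2% of all tested genes, 2 rose and 38 were not called (median -0.07; 5 lower without T1D A, 12 lower without T1D C). The S phase cyclin *cig2* had 42.6, 37.9 and 40.6 CPM at T1W, against 77.8, 112 and 101 CPM at T1D (-1.26, SE 0.23, adjusted *P* = 0.000109). *rep2*, an activator of the G1/S transcription factor MBF, had 23.8, 33.2 and 28.1 CPM at T1W, against 58.7, 65.6 and 58.4 CPM at T1D (-1.11, SE 0.19, adjusted *P* = 6.29e-05). In both genes the groups stood apart and the call was stable. *mik1*, which restrains the mitotic kinase, was at -1.10 (adjusted *P* = 0.0108) and lost its call without T1D B or T1W C (highest adjusted *P* = 0.10). The mitotic inducer phosphatase *cdc25* (-0.66), the anaphase activator *slp1* (-0.84) and the CDK inhibitor *rum1* (-0.48), which holds cells in G1, were also lower. The kinase gene *sid1* of the septation network (0.79) and the forkhead factor *fkh2* (0.50) were higher, and *sid1* lost its call without T1D A (adjusted *P* = 0.0536).

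MBF reads the MCB box, ACGCGT, which lay in 5.38% of the promoters of higher genes, 3.09% of those of lower genes and 3.28% of all. Of the S phase genes above, *cdt1* held it once within the 250 bases before the gene start. *cdc18*, *cig2* and *mik1* held no exact match in those bases. The stretch is shown with the box in capitals.
*cdt1* (chrII:477305-477330, plus strand, 71 bases before the gene start): tagctacgcgACGCGTcaacaaacgc
The authors' annotation starts *cdt1* at 477189, so that this stretch too lies inside their gene model.
Of the 10 genes of core histones and H2A.Z 3 (30.0%) fell, beside 10.2% of all tested genes. They were *hta2* (-0.90), *hhf2* (-0.89) and *hhf1* (-0.73), with T1W and T1D values that overlapped in each through T1D C. The count was 6 without T1D C and 0 in the fit of the 6 libraries alone.

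Part of the ribosomal protein genes fell by a small step. Of 136 ribosomal protein genes 39 (28.7%) fell and 0 rose, beside 10.2% and 6.31% of all tested genes. The median of the list was -0.47, with 117 of the estimates below 0. The largest falls were those of *rps3002*, *rpl4302* and *rps29*. *rps3002* had 64.1, 77.6 and 88.7 CPM at T1W, against 226, 197 and 130 CPM at T1D (-1.26, SE 0.28, adjusted *P* = 0.00176). *rpl4302* had 71.3, 95.9 and 108 CPM at T1W, against 273, 217 and 130 CPM at T1D (-1.17, SE 0.27, adjusted *P* = 0.0021). *rps29* had 120, 155 and 121 CPM at T1W, against 393, 288 and 177 CPM at T1D (-1.11, SE 0.27, adjusted *P* = 0.00331). T1D C was the lowest T1D library in all 3, and the groups did not overlap. The count of lower genes ranged with that library: 51 without T1D C, 7 without T1D A and 15 in the 6 libraries alone, and *rps29* lost its call without T1D A (adjusted *P* = 0.0725). The same list had a median of -1.61 at T1D over T0, a comparison that shares the T1D libraries. Most ribosomal protein genes exist as paralog pairs, which can share reads.

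Ribosomal protein promoters in this species carry HomolD, searched here as CAGTCACA or CAGTCACG on both strands. It lay in 113 of 136 ribosomal protein promoters (83.1%), 8.69% of the promoters of lower genes, 1.42% of those of higher genes and 3.87% of all. Ribosomal protein genes made up 113 of the 196 promoters that hold it and 33 of the 45 lower genes that do. The share among lower genes thus largely restates the falls of this list. Within the list, the 113 genes with it had a median of -0.48 and 33 fell, and the 23 without had a median of -0.42 and 6 fell. The 3 genes with the largest falls each hold it close to the gene start, shown in capitals on the gene's strand.
*rps3002* (chrII:2349493-2349520, minus strand): gtagcatattCGTGACTGcttttttgct
*rpl4302* (chrII:1513788-1513815, minus strand): ttagtgaaaaCAGTCACGgtaatccacc
*rps29* (chrII:516372-516399, plus strand): cctagaagagCAGTCACGactttcgtct
The genes that assemble ribosomes did not share this shift: 8 of 95 (8.42%) rose and 4 (4.21%) fell, at a median of 0.08. Of all tested genes 6.31% rose and 10.2% fell. In the fit of the 6 libraries alone 1 gene of the list rose and 1 fell. Among the calls were *gar2* (0.64), *mrd1* (0.65) and *bms1* (0.67) higher and *rlp24* (-0.68), *rcl1* (-0.68) and *nip7* (-0.63) lower, none of them stable. Leaving out T1D A or another library ended these calls, with adjusted *P* of up to 0.254.

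Transfer RNAs had the lowest median of all lists, -1.64. Of 125 tested 40 (32.0%) fell and 0 rose, beside 10.2% and 6.31% of all tested genes. The transfer RNAs were thinly read. They took 0.0212%, 0.0271% and 0.0365% of the gene reads at T1W, against 0.0837%, 0.110% and 0.166% at T1D. The shares did not overlap, and the two-sided exact permutation test gave *P* = 0.1 (adjusted over 7 RNA classes 0.35), the smallest it can give. Their median number of reads was 6.33 per gene and library, and 21 of the 125 reached a mean of 50. The largest falls past 50 reads were in glutamate tRNA genes. *SPATRNAGLU.04* had 5, 0 and 4 reads at T1W, against 133, 201 and 43 reads at T1D (log2 fold change -4.54, SE 0.84, adjusted *P* = 0.000192). *SPBTRNAGLU.08* had 4, 3 and 8 reads at T1W, against 107, 183 and 65 at T1D (-3.85, SE 0.87, adjusted *P* = 0.00182). *SPCTRNAGLU.10* had 6, 9 and 13 reads at T1W, against 182, 289 and 76 at T1D (-3.49, SE 0.74, adjusted *P* = 0.000966). These 3 calls were stable, and each T1D value lay above every T1W value. Copies of a tRNA gene are near-identical, so the value of 1 copy is uncertain. The kit used is made for messenger RNA and the median annotated length is 73 bases, so what fraction of mature tRNA or of longer precursor was read is not known.

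Other short RNAs fell in part. Of 40 small nuclear and nucleolar RNAs 11 (27.5%) fell and 1 (2.5%) rose, beside 10.2% and 6.31% of all tested genes. The median of the list was -1.08, and 3 of its members were lower without T1W C. *snu5*, the U5 RNA of the spliceosome, had 20.9, 44.0 and 10.8 CPM at T1W, against 345, 321 and 432 CPM at T1D (-3.90, SE 0.90, adjusted *P* = 0.00232, stable). *snoR69* (-2.44) and *snoR56* (-2.42), which guide rRNA modification, lost their calls without T1W C (adjusted *P* of up to 0.0675 and 0.0893). *snR101* moved the other way, with 392, 396 and 389 CPM at T1W, against 239, 223 and 166 CPM at T1D (0.91, SE 0.19, adjusted *P* = 0.00102, stable). The class as a whole took 3.29%, 5.24% and 5.18% of the gene reads at T1W, against 6.33%, 6.69% and 6.60% at T1D (exact permutation *P* = 0.1, adjusted 0.35).

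The median of the mitochondrial genome was -0.91. Beside 10.2% and 6.31% of all tested genes, that genome was lower in 11 of 36 genes (30.6%) and higher in 0. All but *var1* are its tRNAs. Among the named ones, *SPMITTRNAASN.01* had 0.639, 3.79 and 0.586 CPM at T1W, against 13.5, 21.3 and 52.3 CPM at T1D (-4.30, SE 0.96, adjusted *P* = 0.0017, stable). *var1*, which encodes a protein of the small mitochondrial ribosome subunit, had 7.03, 9.92 and 3.37 CPM at T1W, against 234, 127 and 11.5 CPM at T1D (-4.29, SE 0.98, adjusted *P* = 0.00193). Its call was stable, but T1D C lay close to the T1W libraries and far from T1D A and B. Without T1D A, 5 genes of the mitochondrial genome were lower.

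Of 37 nuclear genes of oxidative phosphorylation 13 (35.1%) fell and 1 (2.7%) rose, beside 10.2% and 6.31% of all tested genes. The median of the list was -0.36, and 7 to 16 members were lower when 1 library was left out. ATP synthase subunits led. *atp14* had 27, 33.0 and 24.8 CPM at T1W, against 102, 77.1 and 54.9 CPM at T1D (-1.48, SE 0.24, adjusted *P* = 1.45e-05). *atp18* (-1.13, adjusted *P* = 0.00401) and *cox9*, a cytochrome oxidase subunit (-1.11, adjusted *P* = 0.000224), followed, and all 3 calls were stable. The member that rose was *sdh1* (0.42), the flavoprotein subunit of succinate dehydrogenase, which also belongs to the citric acid cycle. In that cycle 4 of 18 genes (22.2%) rose and 0 fell, beside 6.31% and 10.2% of all tested genes. The 4 were *sdh1*, the dehydrogenase subunits *kgd2* (0.76) and *lat1* (0.51) and the ligase subunit *lsc1* (0.67). In the fit of the 6 libraries alone 0 genes of the cycle rose. Without T1D A or without T1D B the calls of *sdh1* and *kgd2* were lost (highest adjusted *P* of 0.269 and 0.161). The V-ATPase, the proton pump of the vacuole, was lower in *vma9* (-1.03), *vma3* (-1.0), *vma5* (-0.64), *vma16* (-0.56), *vma4* (-0.44) and *vma6* (-0.38). These were 6 of 18 members (33.3%) of the vacuolar list, beside 10.2% of all tested genes that fell. In that list 1 lower gene was left without T1D A and 0 in the 6 libraries alone.

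The largest rises among protein-coding genes with a mean of at least 50 reads and groups that do not overlap were those of *SPAC869.06c*, *SPBPB21E7.10* and *eno102*, which lie near chromosome ends. They belong to the core quiescence genes, which the study defined on these libraries as higher than at T0 at T1D, T1W and T2W on the spike-in scale. The list used here holds the 17 genes tabulated under that name, more than the text of the study counts, and whether each member met the definition was not checked. That choice used both times compared here and favours genes that stayed high at T1W, so the direction of the list is not independent evidence. Of 17 members 11 (64.7%) rose and 0 fell, beside 6.31% and 10.2% of all tested genes. The median of the list was 1.11, and 8 to 10 members rose when 1 library was left out. On chromosome II at 58136-59704, *eno102*, an enolase gene, had 158, 19.5 and 37.5 CPM at T1W, against 4.66, 3.83 and 2.14 CPM at T1D (4.24, SE 0.62, adjusted *P* = 3.29e-06). Beside it at 61362-62126, *SPBPB21E7.10* had 90.3, 14.6 and 25.9 CPM at T1W, against 1.41, 1.17 and 0.536 CPM at T1D (5.23, SE 0.74, adjusted *P* = 2.57e-06). T1W replicate A was the highest library in both, far above replicates B and C, and no T1W value overlapped a T1D value. *SPBPB21E7.11* (2.58) and *SPBPB21E7.02c* (2.76) of the same cluster also rose.

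In the cluster on chromosome I, *SPAC869.06c* (RefSeq symbol *hry1*) had 155, 81.7 and 116 CPM at T1W, against 4.98, 1.92 and 1.88 CPM at T1D (5.27, SE 0.90, adjusted *P* = 4.6e-05). *SPAC869.09* had 78.1, 21.9 and 48.2 CPM at T1W, against 6.17, 4.92 and 3.22 CPM at T1D (3.32, SE 0.85, adjusted *P* = 0.00556), and *mel1*, an alpha-galactosidase gene, was at 1.11. Their neighbours *SPAC869.04* and *SPAC869.03c* did not pass: *SPAC869.04* had 7020, 8270 and 7640 CPM at T1W, against 5640, 5730 and 6850 CPM at T1D (0.33, adjusted *P* = 0.752). *SPAC869.03c* had 2420, 3220 and 2440 CPM at T1W, against 3680, 2890 and 3390 CPM at T1D (-0.30, adjusted *P* = 0.80). *SPBC2G2.17c* on chromosome II was the most even: it had 1200, 1110 and 1220 CPM at T1W, against 228, 226 and 218 CPM at T1D (2.39, SE 0.32, adjusted *P* = 3.15e-07). The remaining called members were *hsp3105* (0.88), *pdc201* (1.27) and *SPNCRNA.1364* (0.73), the last of which lost its call whichever library was left out (adjusted *P* of up to 0.131). *zym1*, a metallothionein gene (0.64), *SPNCRNA.821* (0.99), *SPBC1652.02-antisense-1* (0.74) and *SPBC15D4.05-antisense-1* (0.17) were not called.

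**Figure D4:**
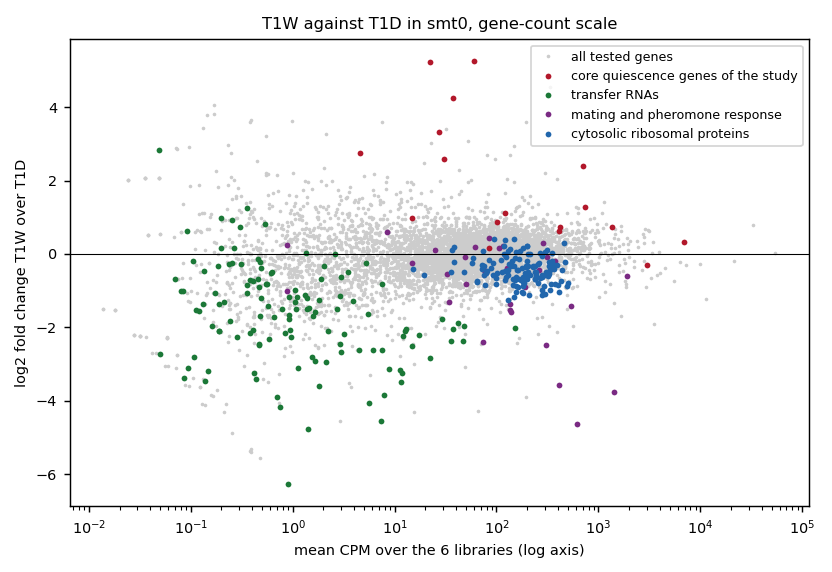
Log2 fold change T1W over T1D on the gene-count scale against the mean CPM of the 6 libraries (log axis), each point a tested gene, with 4 lists in colour. The core quiescence genes reach 5.27, the transfer RNAs lie mostly at low CPM and below 0, and the ribosomal protein genes lie within -1.26 and 0.41.

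Outside these clusters the largest rises among protein-coding genes were spread over genes that share no list. *fmd2* had 448, 311 and 326 CPM at T1W, against 29.4, 29.5 and 31.6 CPM at T1D (3.59, SE 0.43, adjusted *P* = 4.94e-08). *SPAPB8E5.10* (*min8* in RefSeq) had 110, 23.9 and 40.3 CPM at T1W, against 6.17, 4.58 and 5.63 CPM at T1D (3.42, SE 0.56, adjusted *P* = 2.23e-05). *SPAC26F1.11* had 29.4, 36.2 and 56.7 CPM at T1W, against 4.33, 4.50 and 6.70 CPM at T1D (3.03, SE 0.58, adjusted *P* = 0.000288), and *cum1* was at 2.71; these 4 calls were stable. *SPAC23H3.15c* (*ddr48* in RefSeq) had 145, 191 and 445 CPM at T1W, against 49.6, 25.5 and 25.7 CPM at T1D (2.95, adjusted *P* = 0.00651; 0.0603 at most without 1 library). *SPBC21C3.19* (*rtc3* in RefSeq) had 12.1, 96.5 and 170 CPM at T1W, against 12, 10.2 and 11.3 CPM at T1D (3.07, adjusted *P* = 0.0122). Replicate A of T1W was barely above T1D in that gene, and its call was lost without T1D A, T1D B or T1W C (adjusted *P* of up to 0.114). *SPAC11D3.01c* (2.69) and *lsd90* (2.59) also rose and were not stable (adjusted *P* of up to 0.305 and 0.0821).

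Among protein-coding genes with a mean of at least 50 reads and groups that do not overlap, the largest falls included further genes outside the lists above. *pho84*, a phosphate transporter gene, had 1020, 1880 and 1460 CPM at T1W, against 6340, 5560 and 4690 CPM at T1D (-1.92, SE 0.34, adjusted *P* = 6.18e-05). *pho1*, the secreted acid phosphatase of the same phosphate regulon, moved the other way, with 347, 234 and 256 CPM at T1W, against 162, 144 and 131 CPM at T1D (0.94, SE 0.21, adjusted *P* = 0.00147). *SPCC285.05* had 95.2, 189 and 157 CPM at T1W, against 621, 701 and 605 CPM at T1D (-2.13, SE 0.47, adjusted *P* = 0.00148). *mfs3*, a transporter of the major facilitator family, had 163, 129 and 108 CPM at T1W, against 704, 412 and 455 CPM at T1D (-1.97, SE 0.32, adjusted *P* = 1.65e-05). *SPAPB18E9.05c* (-2.19), *SPBC800.11* (-2.30) and *ecl3* (-2.01), a small protein gene linked to chronological lifespan, were the other large falls. All 7 calls were stable.

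Some chaperone and stress genes rose. Beside 6.31% and 10.2% of all tested genes, 6 of 18 heat shock protein genes (33.3%) rose and 0 fell (median 0.38). They were the Hsp70 genes *ssa1* (1.27) and *ssa2* (0.95), the mitochondrial Hsp70 *ssc1* (0.65), *hsp90* (0.82) and the co-chaperones *sti1* (0.72) and *psi1* (0.79). *ssa2* had 811, 1210 and 1250 CPM at T1W, against 528, 382 and 789 CPM at T1D, so that T1W A and T1D C lay close to each other. The count was 0 without T1D B and 7 without T1W A, and *ssa2* and *hsp90* were not stable (adjusted *P* of up to 0.128 and 0.21). For *hsp90* the mean was 3480 CPM at T0, above either starvation time. The glyoxalases *hsp3101* (1.54), *hsp3102* (1.45) and *hsp3105* (0.88) were 3 of the 6 Hsp31 genes, and none fell. They lost their calls without T1D B (adjusted *P* of up to 0.155, 0.0553 and 0.0514). Among oxidative and metal stress genes 4 of 28 (14.3%) rose and 2 (7.14%) fell, beside the same 6.31% and 10.2%. *zwf1*, the entry enzyme of the pentose phosphate pathway, had 287, 284 and 316 CPM at T1W, against 172, 120 and 157 CPM at T1D (0.99, SE 0.24, adjusted *P* = 0.00322, stable), *gst2* was at 1.36 and *obr1* at 1.54, and the thioredoxin *trx2* was at -1.06. *gst2* lost its call without T1W A (adjusted *P* = 0.065), and *obr1* and *trx2* without several libraries (adjusted *P* of up to 0.121 and 0.082).

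Signalling and carbon genes gave a few calls. The stress kinase *sty1* (0.57), its transcription factor *atf1* (0.70) and *git1* (0.46) of the cAMP pathway rose. They were 3 of 32 genes (9.38%) with 0 falls, beside 6.31% of all tested genes that rose and 10.2% that fell. Each of the 3 lost its call without T1D A (adjusted *P* of up to 0.254, 0.205 and 0.138). *gaf1*, a GATA factor under TOR, had 1100, 1140 and 1400 CPM at T1W, against 483, 524 and 821 CPM at T1D (0.99, SE 0.23, adjusted *P* = 0.00184, stable), and its mean at T0 was 122 CPM. Beside 6.31% and 10.2% of all tested genes, 4 of 18 genes of glycolysis and fermentation (22.2%) rose and 1 (5.56%) fell. They were *eno102*, the pyruvate decarboxylase *pdc201*, the dehydrogenase *tdh1* (0.69) and the aldolase *fba1* (0.67) on the higher side and the alcohol dehydrogenase *adh4* (-0.93) on the lower. *pdc201* had 1320, 762 and 1040 CPM at T1W, against 565, 285 and 448 CPM at T1D (1.27, adjusted *P* = 0.0133), and was not stable (adjusted *P* of up to 0.115 without T1D B or T1W A). *dak1*, a dihydroxyacetone kinase gene, was at 0.97 (adjusted *P* = 0.125 at most without 1 library).

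Some chromatin remodelling genes rose by a small step. Of 51 genes 10 (19.6%) rose and 1 (1.96%) fell, beside 6.31% and 10.2% of all tested genes. The median of the list was 0.26, with 40 estimates above 0. *snf21*, the ATPase of the RSC complex, had 753, 673 and 640 CPM at T1W, against 308, 320 and 528 CPM at T1D (0.84, SE 0.20, adjusted *P* = 0.00248, stable). *ino80*, the ATPase of the Ino80 complex, had 593, 583 and 649 CPM at T1W, against 291, 355 and 577 CPM at T1D (0.58, SE 0.18, adjusted *P* = 0.023). *swr1*, the ATPase that deposits H2A.Z, had 202, 220 and 211 CPM at T1W, against 116, 145 and 186 CPM at T1D (0.51, SE 0.17, adjusted *P* = 0.0292). In all 3 the T1D C value lay between the other T1D libraries and T1W. The other rises were *swc5* (0.68), *arp6* (0.53), *fft1* (0.46), *fft2* (0.55), *hrp3* (0.48), *mit1* (0.37) and *bdf1* (0.38). The gene that fell was *act1* (-0.73), the actin gene, whose protein is a subunit of several of these complexes and also the main cytoskeletal protein. The count of rises was 18 without T1D C, but 1 without T1D A and 1 in the 6 libraries alone, where *snf21* was not called. Without T1D A the genes *ino80*, *swr1* and *act1* lost their calls (adjusted *P* of up to 0.245, 0.249 and 0.102).

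Noncoding RNAs moved both ways. Among 611 annotated antisense RNAs 34 (5.56%) rose and 33 (5.40%) fell, and among 669 other noncoding RNAs 27 (4.04%) rose and 51 (7.62%) fell, beside 6.31% and 10.2% of all tested genes. Among the rises with enough reads were *SPNCRNA.945* (33.2, 36.7 and 27.9 CPM at T1W, against 4.22, 4.00 and 10.7 CPM at T1D; log2 fold change 2.49, adjusted *P* = 0.00495) and *SPCC1919.05-antisense-2* (1.90, adjusted *P* = 0.00734). Both lost their calls without T1D B (adjusted *P* of 0.0521 and 0.0514). *SPNCRNA.989* (1.75), *SPNCRNA.737* (1.72) and *rqc1-antisense-1* (1.69) rose and were stable. The meiotic RNA *sme2* (-2.03), *prl15* (-2.17), *SPNCRNA.1394* (-2.07) and the antisense RNAs *ams2-antisense-1* (-2.01), *SPAC890.05-antisense-1* (-1.75) and *gnr1-antisense-1* (-1.29) fell, of which *ams2-antisense-1* and *gnr1-antisense-1* were stable. Leaving out 1 library ended the others' calls, with adjusted *P* of up to 0.183. Whether the counting used strand is not given in the sources used here, so an antisense value may hold reads of its sense gene.

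The remaining lists had few calls, to be read beside the 6.31% of all tested genes that rose and the 10.2% that fell. Genes named for meiotic upregulation gave 11 rises (8.80%) and 16 falls (12.8%) of 125, led by *mug108* (2.29, stable) and *mug190* (1.57) on the higher side and *mug176* (-1.04, stable), *mug111* (-0.99) and *mug160* (-0.90) on the lower. *mug190*, *mug111* and *mug160* lost their calls without T1D B (adjusted *P* of up to 0.0874, 0.138 and 0.0553). Mitochondrial ribosomal proteins gave 2 rises and 8 falls of 55 (*mrpl32* -1.05, stable, and *mrpl31* -1.03, not called without T1W C, adjusted *P* = 0.0664). Amino acid synthesis gave 3 rises (*trp1* 0.83) and 7 falls (*met14* -1.02) of 56, RNA decay 0 rises and 7 falls of 50 (the decapping subunit *dcp1* -0.83), and RNA polymerase subunits 1 rise and 4 falls of 31 (*rpa12* -0.90). The calls of *trp1*, *met14*, *dcp1* and *rpa12* were lost without T1D A (adjusted *P* of up to 0.0811, 0.0522, 0.0552 and 0.15). *erg2* of ergosterol synthesis (-0.68), the zinc transporter *zhf1* (-0.72), the phosphatidylserine decarboxylase *psd2* (-0.82) and *meu22* (1.02) were stable. In hexose transport the only call was *ght7* (3.63), which averaged 4.33 reads per library. Proteasome genes gave 3 rises and 0 falls of 35 (*rpn7* 0.41), translation factors 2 rises and 1 fall of 35 (*tef5* -0.77), and glucan synthases 1 fall of 15 (*gas1* -0.95). The calls of *rpn7*, *tef5* and *gas1* were lost without T1D A (adjusted *P* of up to 0.208, 0.323 and 0.0984).

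The spike-in scale shifted every list down. The medians were -4.93 for ribosomal proteins, -6.46 for transfer RNAs, -4.57 for mating genes, -3.86 for chromatin remodelling and -3.05 for the core quiescence genes, beside -4.24 for all genes. On this scale 26 of 6608 estimates lay above 0. The gene called higher was *SPBPB21E7.10*, with 3.53, 0.282 and 0.116 reads per 1000 ERCC reads at T1W, against 0.937, 0.372 and 0.0804 at T1D (1.57, SE 0.77, adjusted *P* = 0.0401). These values overlapped, T1W replicate A carried the rise, and without it the estimate was -1.10 (adjusted *P* = 0.197). With the limit of 50 reads on average, the next estimates were *SPAC869.06c* (1.01, adjusted *P* = 0.139), *eno102* (0.56, adjusted *P* = 0.424), *SPRRNA.43* (0.33, adjusted *P* = 0.615) and *SPAPB8E5.10* (-0.36, adjusted *P* = 0.594), none of them called. *SPRRNA.43* had 1870 CPM in T1W B and 11.1 to 43.7 in the other 5 libraries, so its values rest on that library. The largest falls past the same limits were *SPATRNAGLU.04* (-9.16), *var1* (-8.75), *mfm3* (-8.65), *SPBTRNAGLU.08* (-8.42) and *SPBTRNAARG.05* (-8.35). Of the 17 core quiescence genes 11 were called lower on this scale, 1 higher and 5 neither.

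In the *hht2* deletion, which shares no library with wild type, the same interval gave 533 higher and 486 lower genes of 6608 tested. Of the 417 higher and 672 lower genes of *smt0*, 212 (50.8%) and 307 (45.7%) were called in the same direction in *hht2∆*, which is 39.8% and 63.2% of its lists, and 0 genes were called in opposite directions. The difference between the strains passed the threshold for 0 of 6608 genes (0.0%; edgeR interaction test, 299 genes at an unadjusted *P* under 0.05, 3 genes in a fit of these strains and times alone; DESeq2 was not run). List medians lay side by side for transfer RNAs (-1.72 in *hht2∆*, -1.64 in *smt0*), mating genes (-0.47 and -0.44) and core quiescence genes (1.17 and 1.11). They differed for the 136 ribosomal proteins, at 0.10 in *hht2∆* with 11 rises and 4 falls, against -0.47 with 0 and 39 in *smt0*. This difference of medians was not tested. Beside the 533 rises among all 6608 tested genes in *hht2∆*, the share of ribosomal protein genes that rose there did not stand out. *SPAC869.06c* was at 0.48 (adjusted *P* = 0.688) in *hht2∆*, against 5.27 in *smt0*. The libraries labelled *hht2∆* replicate A held *hht2* reads at 17.1% (T1W) and 15.4% (T1D) of the wild type level, and without them 109 genes were higher and 128 lower in *hht2∆* and the interaction count was again 0.

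**Figure D5:**
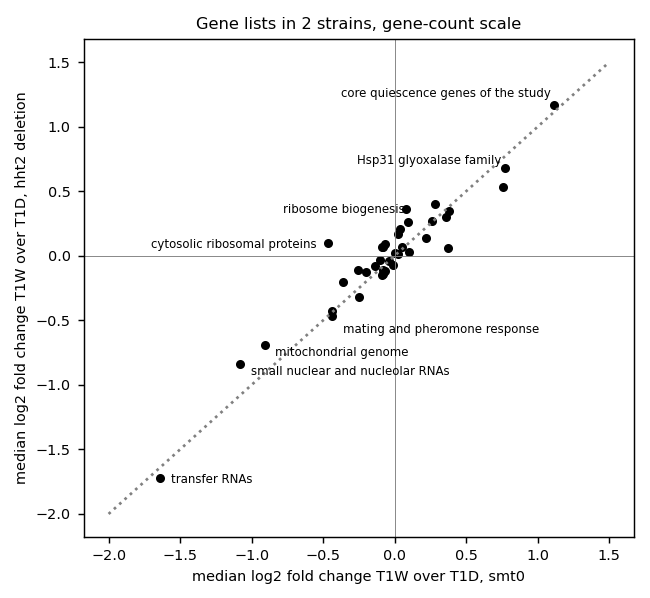
Median log2 fold change T1W over T1D of 38 gene lists in *smt0* (horizontal) and in the *hht2* deletion (vertical), gene-count scale, with the line of equal change dotted. The ribosomal proteins lie above the line, at 0.10 in *hht2∆* and -0.47 in *smt0*.

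In the *ies2* deletion the interaction test gave 528 genes (7.99%) whose change was lower in *ies2∆* than in *smt0* and 440 (6.66%) whose change was higher. In a fit of these strains and times alone the counts were 19 and 53. The *ies2∆* libraries form a batch of their own with no *smt0* library in it, and the strain and the batch cannot be told apart. The library labelled *ies2∆* T1D B held *ies2* reads at 39.7% of the wild type level, with 10.1% in T1D A, 6.20% in T1D C and 0.97% to 4.46% in T1W. The library labelled *ies2∆* T0 C, which is not part of this contrast, held 221%. Without *ies2∆* T1D B the counts were 76 and 133. The mitochondrial genome had a median of 2.05 in *ies2∆*, against -0.91 in *smt0*. The 31 mating genes had a median of -0.78 with 15 falls in *ies2∆*, against -0.44 with 12 falls in *smt0*. Of all 6608 tested genes 785 fell in *ies2∆* and 672 in *smt0*.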

How the data were processed

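RNA-seq libraries of rRNA-depleted total RNA were analysed from 2 deposited tables of counts, 1 of 7014 genes and 1 of 92 ERCC RNAs, over 81 libraries. The authors converted reads with bcl2fastq 2.20.0.422, aligned them with STAR 2.7.9a to ASM294v2 and the ERCC sequences, and counted them in exons with featureCounts 1.5.1; replicates were not pooled. Genes above 1 CPM in at least 3 libraries (6608) were tested with edgeR 4.0.16 (R 4.3.3, limma 3.58.1; quasi-likelihood test, 1 mean per strain and time over all 81 libraries, Benjamini-Hochberg adjustment, threshold 0.05). Library sizes were gene totals times TMM factors or ERCC totals times TMM factors. CPM are counts per 1000000 of the TMM-scaled gene total. The *ies2∆* libraries were shifted together on the spike-in scale, which leaves wild type unchanged. A gene list is given by its calls and median beside those of all genes. DESeq2 1.42.0 and other filters, scalings and sample sets were alternatives. The T1W against T1D fit on the gene-count scale was tested on simulated data, and the spike-in and interaction fits were not.

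Named genes were, past the threshold with a mean of at least 50 reads and groups that do not overlap, the 12 protein-coding and 3 noncoding genes with the largest rises and as many falls, up to 3 each way per list, the 5 highest and lowest on the spike-in scale (the highest estimates where none passed), the core quiescence genes, and up to 3 each way per interaction. A result that this rule would name is not reported here. Other list members named here passed the threshold only and were chosen after their values were seen. The members and lists were chosen with earlier results of these data known. Promoters were read from RefSeq's genome ASM294v3, whose chromosomes I, II and III have the files' lengths; 1997 of 6846 genes have the same start and end in both annotations. The gene totals of the 6 libraries were 3271040 to 10244986 reads. Counting error of the ERCC total is at most 0.881%, and intervals of this kind cover counting error only.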

Additional observations from a re-analysis of the deposited data

Results flagged for a closer look

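The change between T1D and T1W differed between *ies2∆* and *smt0* by edgeR's interaction test for 528 genes with a lower change in *ies2∆* and 440 with a higher one. The largest differences in log2 fold change (*smt0* minus *ies2∆*) with a mean of at least 50 reads were 4.52 for *SPNCRNA.1415* (-5.01 in *ies2∆* and -0.48 in *smt0*), 4.42 for *SPRRNA.43* (0.13 in *ies2∆* and 4.55 in *smt0*) and 3.80 for *SPNCRNA.877* (-3.96 in *ies2∆* and -0.16 in *smt0*). On the other side stood -8.54 for *var1* (4.25 in *ies2∆* and -4.29 in *smt0*), -6.59 for *SPMITTRNAASN.01* (2.29 in *ies2∆* and -4.30 in *smt0*) and -6.21 for *SPMITTRNAGLU.01* (3.90 in *ies2∆* and -2.31 in *smt0*). The *ies2∆* libraries are a batch of their own, and the strain and the batch cannot be told apart. *SPRRNA.43* rests on T1W B of *smt0*, without which its *smt0* change was 0.16.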

How the results depend on the processing

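Of 134 named genes past the threshold on the gene-count scale, 59 kept the call in each fit without 1 library and 55 in every alternative run. Among the stable genes *snf21* and *gnr1-antisense-1* lost it in the 6 libraries alone, and *cum1* and *SPAC869.09* with wild type libraries only. The counts of 417 higher and 672 lower genes became 259 and 389 with wild type libraries only and 206 and 274 with the 6 libraries, and 123 to 677 and 271 to 886 when 1 library was left out. On the spike-in scale 0 genes were higher with DESeq2, the ERCC total without TMM, ERCC species of at least 10 reads, wild type libraries only, the 6 libraries or the replicate block, and 0 to 2 when 1 library was left out. The *hht2∆* interaction gave 3 higher genes and the *ies2∆* interaction 19 and 53 in fits of 2 strains alone; without *ies2∆* T1D B, a choice made after seeing the data, it gave 76 and 133. No named gene called on the gene-count scale reversed. On the spike-in scale the estimates of 9 genes changed sign when 1 library was left out, lowest without T1W A (for *SPRRNA.43* without T1W B) and highest without T1D A. They ranged over -4.20 to 0.11 for *SPAC11D3.01c*, -0.31 to 2.58 for *SPAC869.06c*, -2.61 to 0.24 for *SPAC869.09*, -2.67 to 0.50 for *SPAPB8E5.10*, -1.54 to 0.23 for *fmd2*, -2.43 to 1.51 for *eno102*, -2.77 to 0.40 for *SPBPB21E7.02c*, -1.10 to 2.46 for *SPBPB21E7.10* and -3.99 to 1.31 for *SPRRNA.43*. On the gene-count scale *SPNCRNA.877*, not called, ranged over -0.38 to 0.28. The cause was not tested. The replicate letters are not shown to pair the samples: deviations of T1W and T1D libraries of the same letter correlated at 0.11 (A), -0.0268 (B) and 0.229 (C). With letters as a replicate block, 435 genes were higher and 627 lower on the gene-count scale. On the spike-in scale *eno102* was then at -0.29 and *SPRRNA.43* at -1.14. The mean difference of levels within letters was -4.43, which equals the difference of the group means by arithmetic and adds nothing to it. Depth limits the transfer RNAs most among the RNA classes, with a median of 6.33 reads per gene and library, against 513 for protein-coding genes.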
